A study of Mus musculus with 6 samples.

Results

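The 40 genes described here make up a module of glycolysis and of the response to low oxygen. They were listed by name and comprise the enzymes and transporters that turn glucose into lactate, the hypoxia-inducible factor (HIF) subunits Hif1a and Epas1 with their prolyl hydroxylases, and genes known to be induced when oxygen is scarce. Of these, 39 were matched by name to an identifier in the count tables of 25528 genes, and all 39 passed the filter on low counts, among 12593 genes tested. No identifier was matched under the symbol Mxd2, which is not counted among the 39. Other names of that gene were not resolved.

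The values are read counts of polyadenylated RNA from mouse stomach corpus organoids, which are three-dimensional cultures of the epithelium of the gastric body. One group carried overexpressed Erbb2, the gene of a receptor tyrosine kinase, and is labelled Erbb2_OE_Corpus. The other group, labelled Ctrl_Corpus, was transduced with an empty vector and serves as its control. Each group had 3 libraries, numbered 1 to 3 in both. No treatment is named beyond the vectors. The labels name neither the strain nor the promoter of the construct, nor whether a group came from 1 clone.

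Glycolysis breaks glucose down to pyruvate in the cytosol, and lactate dehydrogenase reduces pyruvate to lactate when less of it is burned in mitochondria. The alpha subunits of HIF are made continuously, and prolyl hydroxylases that need oxygen mark them for destruction, so that control lies mainly at the protein and not at the transcript. When oxygen falls the alpha subunits persist, pair with ARNT and bind short DNA motifs in front of glucose transporters, glycolytic enzymes, Pdk1, Bnip3 and carbonic anhydrases. Receptor tyrosine kinases such as ERBB2 can raise HIF1A protein synthesis through growth factor signalling, and many tumours run glycolysis at a high rate. RNA counts measure transcripts only, not HIF protein or lactate.

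The core of the HIF binding motif is ACGTG or GCGTG, read on either strand, so that it also appears as CACGT or CACGC. Promoter windows from RefSeq on GRCm38.p6, each 300 bases long with 250 before and 50 after a transcription start, were matched to 36 of the members, which have 51 windows. Of these windows 40, or 78.4%, held at least 1 core motif, in 32 of the 36 genes. Among all 32851 windows of that length 43.8% did. Member windows were richer in G and C, with a median of 63.3% against 52.7%, and among windows of at least 60% the shares were 93.3% and 69.2%. The longer CACGTG, an E box that contains ACGTG and is read by other factors too, was in 11.8% of member windows and 7.15% of all. The stretches below come from the 6 members with a motif whose levels differed most between replicate numbers. They run 5′ to 3′ on the gene's strand, and capitals mark each core motif or the E box around it.
Slc16a3, chr11:120949015-120949066, plus strand: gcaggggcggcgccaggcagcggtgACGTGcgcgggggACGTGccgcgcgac
Bnip3, chr7:138909512-138909639, minus strand: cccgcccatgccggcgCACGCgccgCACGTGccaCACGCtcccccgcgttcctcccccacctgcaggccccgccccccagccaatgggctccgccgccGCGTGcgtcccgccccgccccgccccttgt
Ero1a, chr14:45318606-45318725, minus strand: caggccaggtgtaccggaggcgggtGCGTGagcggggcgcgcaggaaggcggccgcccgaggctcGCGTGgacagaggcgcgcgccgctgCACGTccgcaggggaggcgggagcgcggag
Adm, chr7:110627542-110627632, plus strand: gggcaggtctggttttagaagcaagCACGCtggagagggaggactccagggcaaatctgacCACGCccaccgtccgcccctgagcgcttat
Aldoc, chr11:78322998-78323052, plus strand: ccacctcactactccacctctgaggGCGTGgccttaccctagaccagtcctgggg
Pgk1, chrX:106186925-106186998, plus strand: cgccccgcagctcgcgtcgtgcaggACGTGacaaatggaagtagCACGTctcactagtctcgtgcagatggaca
Slc16a3 carries 2 motifs close to its start, Ero1a 3 and Pgk1 2. Car12, Eno2, Gpi1 and Tpi1 had no such motif in any of their windows. A match is a description of letters, and no binding was measured here.

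Total counts lay between 18735853 and 22767455 per library. Erbb2 stood at 125, 164 and 128 CPM (counts per 1000000, scaled by library) in control replicates 1, 2 and 3 and at 342, 349 and 285 CPM in the overexpressing ones, so the groups did not overlap. Its log2 fold change was 1.23 (SE 0.15; adjusted p = 0.64 in edgeR) without the replicate number as a block and 1.23 (SE 0.09; adjusted p = 3.55e-05) with it. Without the block, DESeq2 gave Erbb2 an adjusted p of 5.16e-09. The 6 epithelial markers summed to 6859 to 8511 CPM, whereas 6 fibroblast markers reached at most 1.70 CPM and 3 endothelial markers at most 0.393 CPM in any library. The parietal marker Atp4b had 0 counts in each library, and its partner Atp4a lay between 2.87 and 5.41 CPM, so the acid pump that defines corpus tissue was nearly absent from the transcripts. Libraries with the same number deviated together, as given with the processing, and values with the block are printed where they change a call.

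Few genes of the module passed a test between overexpressing organoids and their controls. Without the block, edgeR called 0 of 39 members higher and 0 lower at an adjusted p under 0.05 (0% of all genes in either direction), and 0 had an unadjusted p under 0.05, against 3.33% of all genes. DESeq2 and limma voom without the block also called 0 members. Of the 12593 genes tested, DESeq2 called 28 higher and 6 lower, and voom called 0 in either direction. With the block 2 members rose, against 2.37% of all genes, and 0 fell, against 0.723%. These were Car12 and Ero1a. DESeq2 and voom with the block called the same 2 higher and 0 lower. Over all genes tested, DESeq2 with the block called 370 higher and 96 lower, and voom 311 and 106. In edgeR with the block 10 members had an unadjusted p under 0.05, against 16.9% of all genes. For 0 members did the groups stay apart, where overexpressing libraries lay wholly above controls in 4.27% of all genes and wholly below in 4.48%. On the log2 scale the members' median fold change with the block was 0.06 and that of all genes -0.01, and 20 members were positive in sign, against 48.4% of all genes. Of the mucous cell markers, some had higher levels with Erbb2. The 4 pit cell markers summed to 63.1, 74.5 and 31.5 CPM in the controls and 85.8, 194 and 121 CPM with Erbb2, nearly all of it Tff1, and these sums did not overlap. Tff1 itself did not pass (log2 fold change 1.25, SE 0.40; edgeR with the block, adjusted p = 0.324). The neck cell marker Tff2 was at 34.2, 92.5 and 39.2 CPM in the controls and 79.4, 175 and 59.2 CPM with Erbb2 (log2 fold change 0.91, SE 0.11; edgeR with the block, adjusted p = 0.00167, and 0.9997 without it). Their part in the values of Car12, Ero1a and the pathway genes was not tested. Below, rose and fell refer to edgeR with the block. Each gene so named missed the threshold without it, at an adjusted p of 0.9997, and other log2 fold changes with Erbb2 are also from that fit.

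**Figure D1:**
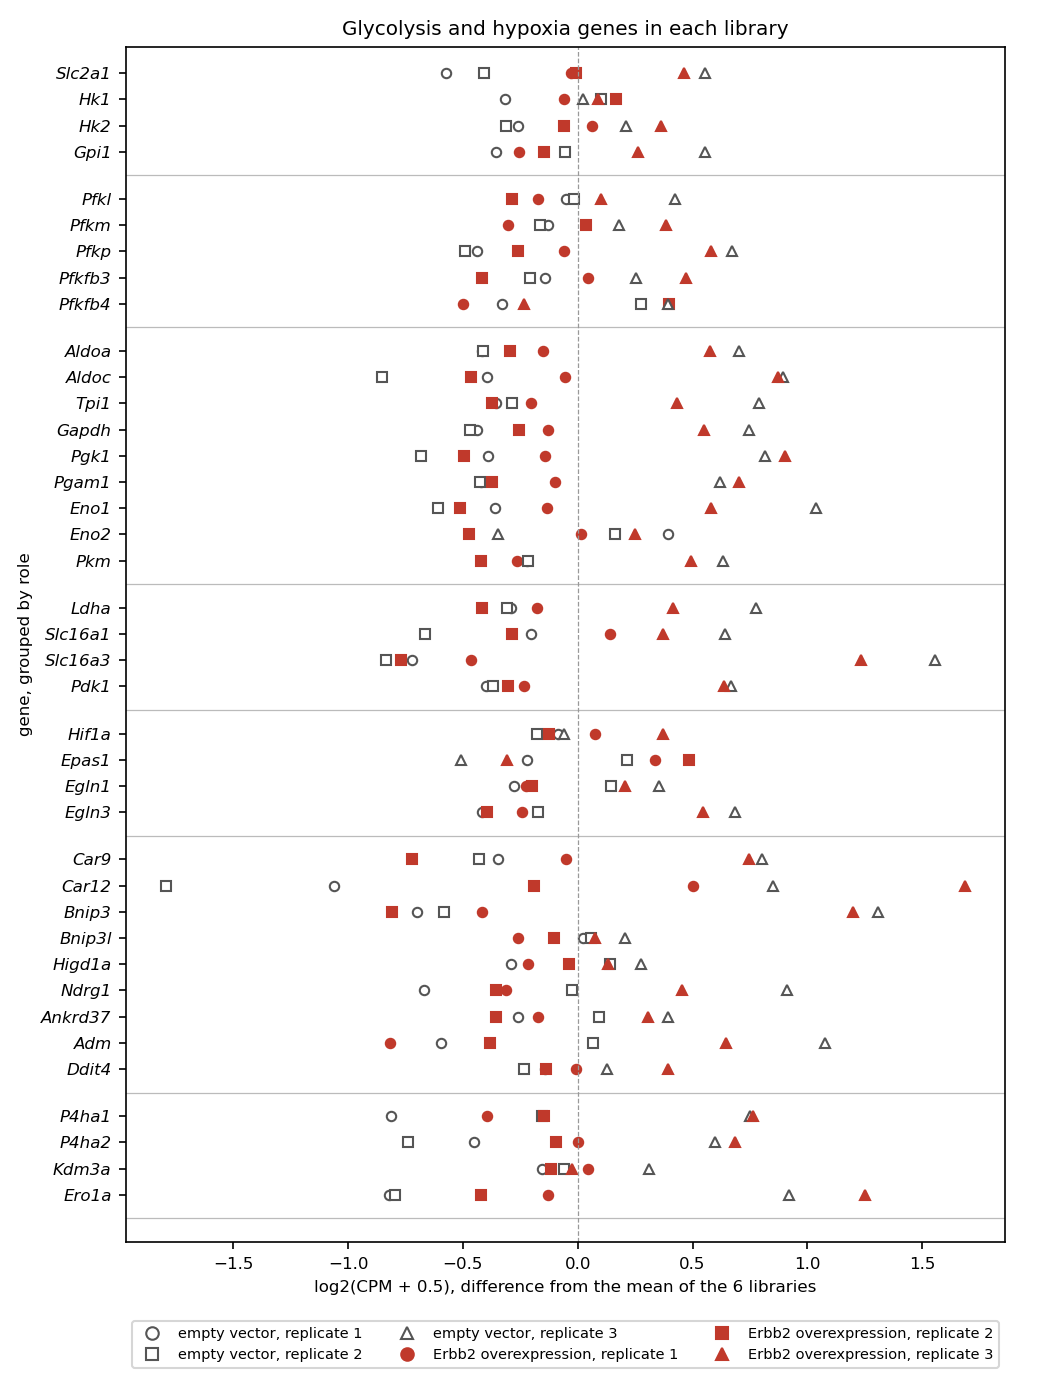
Level of each of the 39 genes in the 6 libraries, as log2(CPM + 0.5) minus the mean of the 6; open grey symbols are controls, filled red ones Erbb2, and circles, squares and triangles are replicates 1, 2 and 3. Both triangles lie to the right of the other 4 symbols for 32 genes, while red and grey symbols are intermixed.

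Car12, a membrane carbonic anhydrase that helps export acid, changed most with Erbb2. It stood at 4.17, 2.31 and 17.1 CPM in control replicates 1, 2 and 3 and at 13.3, 8.04 and 30.8 CPM in the overexpressing ones. The overexpressing library was the higher one in all 3 pairs, but control replicate 3 lay above overexpressing replicates 1 and 2, so the groups overlapped. The log2 fold change was 1.26 (SE 0.19; edgeR with the block, adjusted p = 0.00508), or 2.39-fold, and the pairs gave 1.56, 1.60 and 0.83. Car12 was low beside its relative Car9: per kilobase of exon the means were 1.66 and 65.2 CPM.

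Ero1a, the oxidase that forms disulfide bonds in the endoplasmic reticulum, was the other member to rise. Its values were 108, 110 and 363 CPM in the controls and 175, 143 and 456 CPM with Erbb2. Within each number the overexpressing library was higher, yet the gap between control replicate 3 and the other controls was larger than any gap within a pair. The log2 fold change was 0.47 (SE 0.09; edgeR with the block, adjusted p = 0.0138), or 1.38-fold. That call was lost without replicate 1 (adjusted p = 0.0942) and without replicate 2 (adjusted p = 0.0647).

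**Figure D2:**
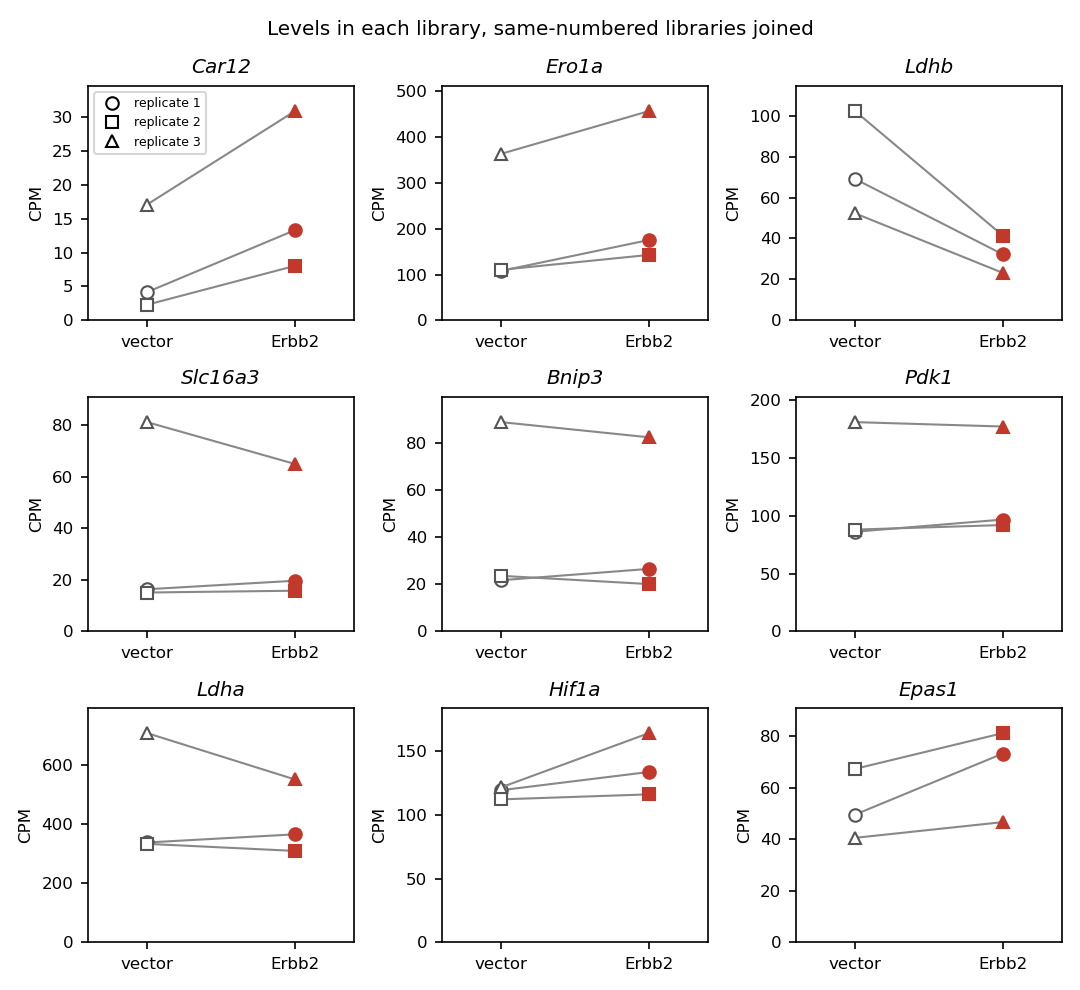
CPM of 9 genes in vector and Erbb2 libraries, with same-numbered libraries joined by a line; each axis starts at 0. The lines of Car12 and Ero1a rise and those of Ldhb fall in 3 of 3 pairs, whereas Slc16a3, Bnip3, Pdk1 and Ldha set replicate 3 apart in both genotypes.

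Of the 4 genes of glucose uptake and the first steps, 0 passed the test for Erbb2. Both libraries of replicate 3 were highest for 3 of them, against 18.8% of all genes. The members were listed with differences between replicate numbers already known, so such counts by role are descriptive only. Gpi1, which converts glucose 6-phosphate to fructose 6-phosphate, was at 722, 890 and 1357 CPM in the controls and 774, 835 and 1109 CPM with Erbb2. Hk1, the broadly expressed hexokinase, was at 226, 302 and 286 CPM in the controls and 270, 316 and 300 CPM with Erbb2, and was the single member with both libraries of replicate 2 highest. Slc2a1, the glucose transporter GLUT1, and the inducible hexokinase Hk2 had log2 fold changes of 0.27 (SE 0.12; edgeR, adjusted p = 0.26) and 0.24 (SE 0.08; edgeR, adjusted p = 0.143). In replicate 3 the direction of Slc2a1 was opposite, at 108 CPM in the control and 101 CPM with Erbb2.

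The phosphofructokinase step commits sugar to glycolysis, and 0 of its 5 genes passed for Erbb2. Pfkl, the liver-type subunit, was at 314, 322 and 438 CPM in the controls and at 289, 267 and 350 CPM with Erbb2. It was lower with Erbb2 in 3 of 3 pairs without passing (log2 fold change -0.24, SE 0.08; edgeR, adjusted p = 0.131). Pfkp, the platelet-type subunit, was at 91.9, 88.6 and 199 CPM in the controls and 120, 104 and 187 CPM with Erbb2. Its direction differed between pairs, with Erbb2 above the control in replicates 1 and 2 and below it in replicate 3. Pfkfb3, which makes an activator of the enzyme, ranged from 39.1 to 72.7 CPM and its relative Pfkfb4 from 2.62 to 5.32 CPM.

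In lower glycolysis, from aldolase to pyruvate kinase, 0 of 9 genes passed for Erbb2. For 8 of them both libraries of replicate 3 were highest, against 18.8% of all genes. Pkm, the pyruvate kinase of most proliferating tissues, was at 1783, 1789 and 3220 CPM in the controls and 1731, 1550 and 2931 CPM with Erbb2. Aldoa, the main aldolase, was at 538, 541 and 1170 CPM in the controls and 648, 587 and 1074 CPM with Erbb2. For both genes the 2 libraries of replicate 3 stood well above the other 4, whichever vector they carried. The members Aldoc, Tpi1, Gapdh, Pgk1, Pgam1 and Eno1 had the same order, and their log2 fold changes with Erbb2 lay between -0.10 and 0.22. Eno2, the neuronal enolase, stayed between 0.510 and 1.34 CPM and showed no such order.

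Of the 4 genes that set the fate of pyruvate, 0 passed for Erbb2. All 4 were highest in both libraries of replicate 3, against 18.8% of all genes. Ldha, the lactate dehydrogenase subunit that favours lactate, was at 338, 334 and 708 CPM in the controls and 366, 310 and 552 CPM with Erbb2. Its log2 fold change was -0.12 (SE 0.09; edgeR, adjusted p = 0.566). Pdk1, a kinase that shuts off pyruvate dehydrogenase, was at 86.2, 88.0 and 181 CPM in the controls and 96.7, 91.9 and 177 CPM with Erbb2. Slc16a3, the lactate exporter MCT4, was named after its values were seen. It was at 16.4, 15.1 and 81.2 CPM in the controls and 19.7, 15.8 and 65.0 CPM with Erbb2. Replicate 3 thus held several times the level of the others in both genotypes, and 98.6% of the sum of squares of log2(CPM + 0.5) lay between replicate numbers.

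The 4 oxygen-sensing members did not share one order of the libraries, and 0 of them passed for Erbb2. Hif1a, the main alpha subunit, was at 119, 112 and 121 CPM in the controls and 133, 116 and 164 CPM with Erbb2 (log2 fold change 0.22, SE 0.09; edgeR, adjusted p = 0.239). Its controls were nearly level across the numbers. Epas1, which encodes HIF2 alpha, was at 49.6, 67.3 and 40.6 CPM in the controls and 73.3, 81.2 and 46.7 CPM with Erbb2, and was the single member lowest in both libraries of replicate 3. It was higher with Erbb2 in 3 of 3 pairs but missed the threshold (log2 fold change 0.35, SE 0.10; edgeR, adjusted p = 0.0768). Egln3, a prolyl hydroxylase that is itself induced by HIF, was at 216, 256 and 464 CPM in the controls and 244, 219 and 421 CPM with Erbb2. Egln1, the main oxygen sensor of the family, ranged from 53.7 to 83.7 CPM.

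Among 9 genes of acid-base balance, mitochondria and stress, 1 rose with Erbb2, which was Car12. In this role 8 were highest in both libraries of replicate 3, against 18.8% of all genes. Car9, the carbonic anhydrase most used as a hypoxia marker, was at 109, 102 and 242 CPM in the controls and 133, 83.5 and 232 CPM with Erbb2. Its log2 fold change was -0.01 (SE 0.10; edgeR, adjusted p = 0.965). Bnip3l, a mitophagy receptor, was at 154, 158 and 175 CPM in the controls and 127, 142 and 160 CPM with Erbb2, lower with Erbb2 in 3 of 3 pairs without passing (edgeR, adjusted p = 0.235). Its relative Bnip3, named after its values were seen, was at 21.8, 23.7 and 89.1 CPM in the controls and 26.6, 20.2 and 82.6 CPM with Erbb2. So both mitophagy receptors were highest in both libraries of replicate 3, but the numbers differed by 3.92-fold for Bnip3 and by 1.19-fold for Bnip3l. Adm, the vasodilator peptide adrenomedullin, ran from 4.10 to 16.6 CPM across libraries, and its log2 fold change was -0.41 (SE 0.17; edgeR, adjusted p = 0.252). Ndrg1, Ankrd37, Higd1a and the mTORC1 inhibitor Ddit4 had log2 fold changes between -0.15 and 0.17 with Erbb2.

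In the last role, of collagen hydroxylation, histone demethylation and protein folding, 1 of 4 genes rose, which was Ero1a. Kdm3a, a histone demethylase, was at 80.5, 86.0 and 111 CPM in the controls and 92.5, 82.7 and 88.1 CPM with Erbb2. P4ha1 and P4ha2, catalytic subunits of collagen prolyl hydroxylase, ran from 26.0 to 78.6 CPM and from 20.2 to 55.1 CPM. P4ha2 was higher with Erbb2 in 3 of 3 pairs and did not pass (log2 fold change 0.38, SE 0.12; edgeR, adjusted p = 0.118).

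The direction with Erbb2 differed between the pairs of libraries. In replicate 1 the overexpressing library was the higher one for 32 of 39 members (49.1% of all genes), in replicate 2 for 22 (50.5%) and in replicate 3 for 14 (49.7%). The median differences in log2(CPM + 0.5) were 0.23, 0.05 and -0.09, and over all genes they lay within 0.01 of 0. In all, 11 members were higher in 3 of 3 pairs, against 19.6% of all genes, and 4 were lower, against 19.2%. The 11 were Hk1, Hk2, Pgk1, Pgam1, Hif1a, Epas1, Car12, Ddit4, P4ha1, P4ha2 and Ero1a, and the 4 were Pfkl, Pkm, Bnip3l and Adm. Without replicate 1 or without replicate 2 the fit with the block called 1 member higher, Car12 (1.37% and 0.95% of all genes). Without replicate 3 it called 10 members higher, against 6.15% of all genes, and 0 lower, against 2.56%. These were Slc2a1, Hk2, Pfkp, Aldoc, Gapdh, Slc16a1, Epas1, Car12, P4ha2 and Ero1a, with log2 fold changes from 0.27 for Gapdh to 1.73 for Car12. Whether the response to Erbb2 differs between replicate numbers was not tested.

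**Figure D3:**
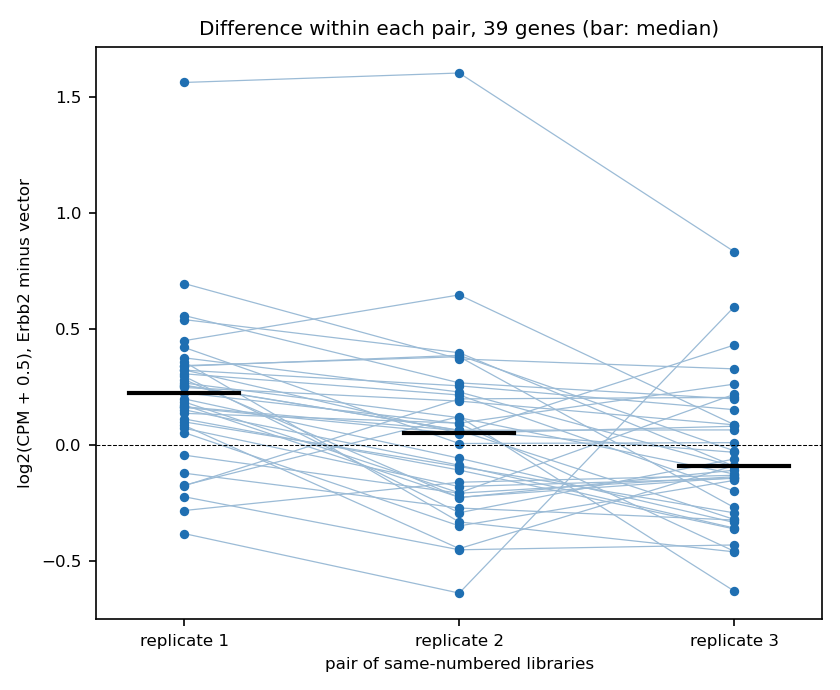
Difference in log2(CPM + 0.5) between the Erbb2 and the vector library of each number, with 1 point and line per gene for 39 genes and a bar at the median. The bar lies at 0.23 in replicate 1, 0.05 in replicate 2 and -0.09 in replicate 3, and the uppermost points of replicates 1 and 2 are Car12.

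For most of these genes, though not for all, the larger difference was between replicate numbers and not between genotypes. The members were listed with this variation already known, so the counts that follow describe it and do not support it. In edgeR with group and number as terms, 32 of 39 members differed among numbers at an adjusted p under 0.05, against 29.0% of all genes, and 36 at an unadjusted p under 0.05, against 40.4%. Both libraries of replicate 3 lay above the other 4 for 32 members (18.8% of all genes) and below them for 1, Epas1 (20.1%). Both conditions, a call among numbers and replicate 3 highest, held for 30 members and for 1291 of the 12593 genes tested. The 7 members that missed the threshold were Pfkfb4, Eno2, Hif1a, Bnip3l, Higd1a, Ankrd37 and Kdm3a. Replicate 1 was highest for 0 members (6.77% of all genes) and lowest for 7 (6.68%), and replicate 2 highest for 1 (16.0%) and lowest for 9 (15.4%).

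In size, the highest number stood a median of 1.93-fold above the lowest over the members and 1.29-fold over all genes, and at least 2-fold above it for 15 members, against 14.7% of all genes. The numbers held a median of 88.2% of a member's sum of squares and the genotype 3.10%, where over all genes the medians were 64.8% and 10.3%. Having more levels than the genotype, the numbers take a larger share even where neither has an effect. Between replicates 3 and 1 the median log2 difference was 0.83, and between replicates 2 and 1 it was -0.08. The largest differences were those of Slc16a3 (4.73-fold), Car12 (4.63-fold), Bnip3 (3.92-fold), Ero1a (3.24-fold), Adm (3.21-fold) and Aldoc (2.93-fold). On the log2 scale Slc16a3 was 2.02 (SE 0.15) higher in replicate 3 than in replicate 1 and 2.24 (SE 0.15) higher than in replicate 2, and for Bnip3 these were 1.82 (SE 0.13) and 1.97 (SE 0.14). Transporter, mitophagy receptor, folding oxidase and aldolase thus shared the order, while Hif1a stood 0.17 (SE 0.11) and 0.31 (SE 0.11) higher and Epas1 differed by -0.48 (SE 0.12) and -0.76 (SE 0.12).

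Summed over the members, transcripts came to 6241, 6571 and 11957 CPM in the controls and 6834, 6315 and 10770 CPM with Erbb2. That is 0.628%, 0.623% and 1.25% of all counts in the controls and 0.691%, 0.593% and 1.14% with Erbb2. In bulk samples more cells with these transcripts and more RNA per cell cannot be told apart. Mitochondrial transcripts held 8.14%, 10.6% and 8.05% of counts in the controls and 8.01%, 11.1% and 6.33% with Erbb2, so replicate 2 and not replicate 3 was highest. Among immune markers Cd68, a macrophage marker, was at 22.7, 18.3 and 52.9 CPM in the controls and 34.8, 17.3 and 72.8 CPM with Erbb2, also highest in replicate 3. Ptprc, the marker shared by white blood cells, was at most 1.97 CPM and the T cell marker Cd3e at most 0.131 CPM. Of 3 chief cell markers, Cblif stood at 3.48, 1.86 and 38.2 CPM in the controls and 3.62, 0.793 and 32.1 CPM with Erbb2. Pgc did not follow that order, with 53.2, 97.3 and 87.6 CPM in the controls and 59.1, 52.0 and 69.8 CPM with Erbb2, and Lipf was at most 0.113 CPM. Among epithelial markers, Cldn18 was at 307, 318 and 920 CPM in the controls and 702, 752 and 1168 CPM with Erbb2. Krt18 was at 728, 758 and 1036 CPM in the controls and 877, 911 and 1027 CPM with Erbb2. Both were highest in both libraries of replicate 3, and the other epithelial markers were not. Of the pit cell markers Gkn1 alone was, at no more than 4.83 CPM. The part of these differences in the level of the members was not tested. The count of 32 was also 32 with the members and pathway genes left out of the scaling, and it was 10, against 16.4% of all genes, when both libraries of replicate 3 were left out.

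**Figure D4:**
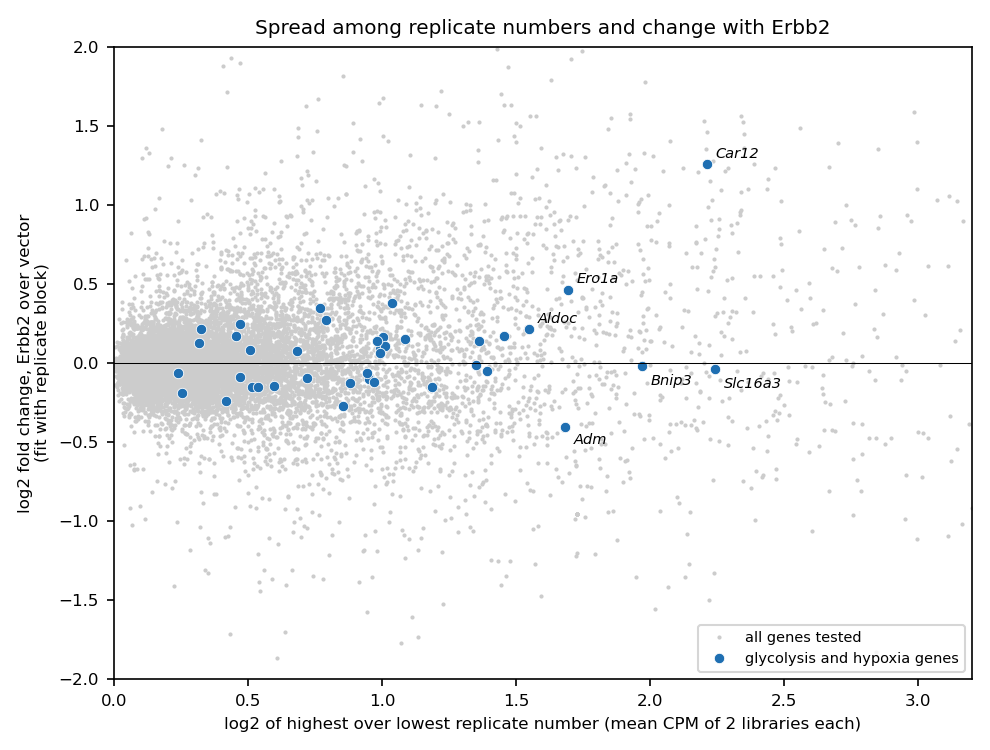
For each gene, the log2 ratio of its highest to its lowest replicate number (x) and its log2 fold change with Erbb2 in the fit with the block (y); grey dots are all genes tested and blue ones the 39 members. The members spread along x to 4.73-fold for Slc16a3 and, Car12 apart, stay between -0.41 and 0.47 on y; grey genes beyond the axis limits are not drawn.

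Levels can be compared between genes once divided by exon length, and each family of isoenzymes was led by one or a few genes. The values in this paragraph are mean CPM per kilobase over the 6 libraries. Slc2a1 was at 21.7, while the transporter Slc2a3 was at 0.0318. Hk1 was at 33.2 and Hk2 at 15.1, and among phosphofructokinases Pfkl was at 49.4, Pfkp at 9.83 and Pfkm at 8.58. Aldoa at 261 exceeded Aldoc at 13.6, Pkm at 433 exceeded the liver and red cell gene Pklr at 7.66, and Eno1 at 40.9 exceeded Eno3 at 1.89 and Eno2 at 0.199. Of these families the hexokinases were the most evenly shared. Slc16a1, the transporter MCT1, was at 18.2 and Slc16a3 at 6.68, but in control replicate 3 Slc16a3 reached 15.3. Egln3 led the prolyl hydroxylases at 114, over Egln2 at 20.6 and Egln1 at 18.4, and Pdk2 was at 26.3 and Pdk1 at 15.4. That order turned in replicate 3, where Pdk1 was at 23.3 and Pdk2 at 17.6 in the control and at 22.8 and 19.5 with Erbb2. With the longest transcript as length the same gene led each of these families. P4ha1 and P4ha2 came out nearly level in that way, at 12.4 and 11.9, against 12.2 and 5.82 over all exons. Near-identical pseudogenes, which can share reads, were found for 10 members, 74 of them for Gapdh. The other members were Pgk1, Bnip3, Ldha, Eno1, Bnip3l, Gpi1, Pgam1, Pkm and Tpi1. Of these pseudogenes 0 had an identifier in the count tables, and the levels of these 10 members are uncertain.

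Ldhb, the lactate dehydrogenase subunit that favours pyruvate, is no member, and it fell with Erbb2. It was at 69.1, 102 and 52.3 CPM in the controls and 32.2, 41.4 and 23.2 CPM in the overexpressing libraries, so the groups did not overlap. The log2 fold change was -1.19 (SE 0.09; edgeR with the block, adjusted p = 4.06e-05), a 2.29-fold fall. Without the block DESeq2 gave an adjusted p of 0.0407. Per exon length, Ldhb made up 30.1%, 39.2% and 13.5% of both lactate dehydrogenase transcripts in the controls and 15.7%, 22.0% and 8.14% with Erbb2. The share was lower with Erbb2 in 3 of 3 pairs and lowest in replicate 3 in both groups, where Ldha was highest.

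Other genes of the pathway were taken from 6 lists, and their counts stand beside 2.37% of all genes that rose and 0.723% that fell. The lists were chosen with earlier results of these data known, so the counts are descriptive only. Of 14 tested transporters and remaining isoenzymes 0 rose and 1, Ldhb, fell. Pklr had a log2 fold change of 0.50 (SE 0.13; edgeR, adjusted p = 0.0635) and the transporter gene Slc16a7, named after its values were seen, one of -1.11 (SE 0.29; edgeR, adjusted p = 0.0675). Of 14 genes of pyruvate entry into mitochondria and of 8 of the pentose phosphate pathway, 0 passed. The smallest p-values were those of Dld (log2 fold change -0.19), Pdk3 (-0.27), H6pd (0.35) and Pgls (0.26), at adjusted p between 0.0743 and 0.29 in edgeR. Of 13 tested genes of glycogen and gluconeogenesis 1 rose, Pck2, the mitochondrial phosphoenolpyruvate carboxykinase. It went from 42.5, 25.1 and 38.0 CPM to 69.4, 40.7 and 60.9 CPM (log2 fold change 0.69, SE 0.09; edgeR with the block, adjusted p = 0.00204). G6pc3 had a log2 fold change of 0.27 without passing. Of 14 genes of oxygen sensing 0 passed, with Egln2 at -0.23 and Hif3a at 1.35 on the log2 scale (edgeR, adjusted p = 0.237 and 0.102). Hif3a was below 1 CPM in 4 libraries and at 1.42 and 4.29 CPM in the control and Erbb2 libraries of replicate 3.

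Of 28 tested further hypoxia-induced genes, 6 rose with Erbb2 and 0 fell, against 2.37% and 0.723% of all genes. The list was chosen with earlier results of these data known, so these counts describe it and do not support an enrichment. The 6 were Ier3, Plin2, Angptl4, Tmem45a, Vldlr and Stc2. Several of them are known to answer to growth factor or lipid signals as well as to low oxygen. Which signal, if any, acted here was not tested. Ier3, an immediate early gene, was at 30.6, 32.6 and 46.5 CPM in the controls and 52.3, 55.9 and 77.7 CPM with Erbb2, with groups that did not overlap (log2 fold change 0.76, SE 0.09; edgeR with the block, adjusted p = 0.00125). Plin2, which coats lipid droplets, was at 32.5, 20.1 and 46.9 CPM in the controls and 51.1, 34.8 and 71.4 CPM with Erbb2 (log2 fold change 0.68, SE 0.09; edgeR with the block, adjusted p = 0.00326). Angptl4, a lipase inhibitor, was at 2.69, 1.46 and 14.2 CPM in the controls and 8.81, 5.72 and 25.4 CPM with Erbb2. Its log2 fold change was 1.24 (SE 0.22; edgeR with the block, adjusted p = 0.00979), and like Car12 it was both higher with Erbb2 and higher in replicate 3. Tmem45a had a log2 fold change of 2.13 (SE 0.36), which was 4.22 without replicate 3. It stood at 0.139, 0.113 and 3.53 CPM in the controls and 2.22, 2.77 and 11.2 CPM with Erbb2, so control replicate 3 lay above overexpressing replicates 1 and 2. The lipoprotein receptor gene Vldlr was at 35.7, 20.5 and 47.0 CPM in the controls and 46.5, 42.6 and 68.3 CPM with Erbb2. Stc2, a secreted glycoprotein gene, was at 318, 260 and 205 CPM in the controls and 456, 304 and 301 CPM with Erbb2. Their groups overlapped, and their log2 fold changes were 0.63 (SE 0.12) and 0.43 (SE 0.08). Vldlr lost its call without replicate 2 (edgeR, adjusted p = 0.123) and Stc2 without replicate 1 (edgeR, adjusted p = 0.093). The list's median log2 fold change was 0.11, against -0.01 over all genes. Vegfa, the vascular growth factor, was named after its values were seen and ranged from 237 to 329 CPM over the libraries; its log2 fold change was 0.04 (SE 0.08; edgeR, adjusted p = 0.856).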

How the data were processed

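The authors deposited raw read counts per Ensembl gene, 1 table per library; STAR, featureCounts and the assembly GRCm39 are named per the submitters' processing notes, without versions, annotation or strand setting, so antisense partners cannot be told apart. Symbols matched 25424 of 25528 identifiers; Ero1a matched through an older symbol, and Aldoa took the more abundant of its identifiers. Counts were tested with edgeR 4.0.16 in R 4.3.3 (filterByExpr with a minimum count of 10, TMM scaling, two-sided quasi-likelihood F test, Benjamini-Hochberg over 12593 genes, threshold 0.05), with group as the term. SE is the log2 fold change over the square root of F. CPM are per 1000000 TMM-scaled counts, and logs add 0.5. Scripts were tested on simulated data.

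Same-numbered libraries deviated together from their group means (r = 0.393, 0.725 and 0.750 across genes for replicates 1, 2 and 3, and 0.390, 0.724 and 0.748 without the members). The labels give only the numbers and do not name separate cultures, so the pairing rests on these same counts and p-values measure the spread of these libraries, which may be technical. Exon lengths and pseudogenes (at least 95% identity over 300 bases) came from GENCODE M21 on GRCm38, an earlier build than the counts. Of the 36 members with a promoter window, 31 have a window that opens an annotated transcript.

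The members and lists were chosen with earlier results of these data known. Values in each library are given for members past the threshold with or without the block, the 2 of each role with the highest mean CPM, and Hif1a, Epas1, Car9 and Pdk1, and for list genes that passed. Of each list the 2 with the smallest p are named too, with fold changes; further list genes, Slc16a3 and Bnip3 are said to be named after their values were seen. Alternatives were other scalings, filters and tools (DESeq2 1.42.0, limma 3.58.1 voom), the replicate block, left-out libraries and transcript length. One cell type marker of the fixed lists is not reported here.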

Additional observations from a re-analysis of the deposited data

How the results depend on the processing

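Without the block, members called higher and lower stayed at 0 under each scaling, filter, tool and left-out library. Over all genes these calls were 0 too, except with DESeq2 (28 higher, 6 lower) and without control replicate 3 (1 higher). The fit with the replicate block called 2 members higher, also with RLE scaling (2), upper-quartile scaling (2), no filter (2), a filter of 1 CPM in 3 libraries (2), DESeq2 (2), limma voom (2), the earlier form of the fit (2) and removal of Erbb2 with the mitochondrial genes (2), and between 1 and 10 with a pair of libraries left out. Over all genes, the fits with the block and all libraries called 272 to 370 higher, and those with a pair left out 121 to 769. With all libraries kept, the block changed no call among members other than Car12 and Ero1a. The 10 arose without replicate 3, where 6.15% of all genes were called higher. The fits without replicate 1 and without replicate 2 called 1 each, against 1.37% and 0.95% of all genes. The cause was not tested. The count for replicate numbers was 31 to 33 under other scalings, filters and tools, against 20.4% to 29.5% of all genes. With libraries left out it was between 10 and 33, against 14.5% to 36.1% of all genes. Without the block, Ero1a turned to -0.29 on the log2 scale when Erbb2 replicate 3 was left out (edgeR, adjusted p = 0.9996), which leaves the genotypes with unequal numbers, and was 1.25 without control replicate 3, the largest among left-out libraries; the other genes called with the block changed sign in 0 settings. Of the 56 named genes, 27 that were not called changed sign with some library left out, and 0 of these did so with all libraries kept. In the same way the members' median without the block ran from -0.29 to 0.32 with single libraries left out. Left-out libraries, upper-quartile scaling, voom and the scaling tests for the replicate numbers, and the earlier form of the fit, were added after seeing the data. Genes of a few CPM, such as Eno2 and Tmem45a, rest on few counts and small differences in them were not detectable at this depth.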

Other observations

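Beyond the members, some genes of the pathway lists shared the order of replicate numbers, and they were picked out after their values were seen. Ak4, a mitochondrial adenylate kinase, was at 6.30, 6.08 and 34.3 CPM in control replicates 1, 2 and 3 and at 9.68, 6.79 and 36.5 CPM with Erbb2, 5.50-fold between the highest and lowest number. Bsg, the chaperone that carries lactate transporters to the membrane, was at 1189, 1466 and 2569 CPM in the controls and 1748, 1578 and 2525 CPM with Erbb2. By list, both libraries of replicate 3 were highest for 17 of 28 tested further hypoxia-induced genes and 5 of 8 of the pentose phosphate pathway, against 18.8% of all genes. They were highest for 2 and lowest for 5 of 14 genes of oxygen sensing, where 20.1% of all genes were lowest. In that list Arnt, the HIF partner subunit, ran from 80.2 to 91.5 CPM. Of 14 genes of pyruvate entry they were highest for 1 and lowest for 2. These orders were not tested as lists.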
